A study of Mus musculus with 105 samples.

Results

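Messenger RNA levels of the genes that make cholesterol and of their main transcriptional activator were followed in mouse liver exposed to a liver carcinogen. The list held 7 genes, Hmgcs1, Cyp51, Sqle, Acat2, Srebf2, Stard4 and Idi1, and its members were taken by gene symbol from a deposited expression matrix. Of these, 6 were measured among 12966 genes, and Idi1 was not analysed here. The rule used gene symbols alone, but the list was chosen with earlier results of these data known.

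Cholesterol is built in the cytosol and endoplasmic reticulum from acetyl-CoA, through mevalonate, squalene and lanosterol. The pathway is controlled mainly at transcription by SREBP2, the protein of Srebf2, which is held in the endoplasmic reticulum when sterols are plentiful and is cut and sent to the nucleus when they are scarce. The liver is a main site of this synthesis and also disposes of cholesterol as bile acids. Acat2 encodes the cytosolic thiolase that joins acetyl-CoA units at the start, and Hmgcs1 encodes the cytosolic HMG-CoA synthase of the next step. Sqle encodes squalene epoxidase, a rate-controlling enzyme after squalene, and Cyp51 encodes the demethylase that acts on lanosterol. Stard4 encodes a soluble protein that carries sterols between membranes and is a known SREBP2 target.

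All mice received the liver carcinogen diethylnitrosamine (DEN), and no untreated mice were among the samples. Knockout groups were labelled Ikk KO (IKO), Shp2 KO (SKO, gene Ptpn11), β-catenin KO (BKO, gene Ctnnb1) and cMet KO (MKO, gene Met), each beside wild-type mice (WT). Each genotype had liver at 1, 3, 5 and 8 months, where 8-month non-tumour liver (NT) and 8-month tumours (T) were separate groups. By the grp prefix of the sample titles, the 30 groups fell into 2 sets, called sequencing groups here, each with its own WT. The first held IKO, SKO and WT with 4 libraries a group (60 libraries). The second held BKO, MKO and WT with 3 a group (45 libraries). The series title places the gene losses in hepatocytes. The labels used here do not name the driver of the deletion or the Ikk subunit, and they number biological replicates without saying that these were separate animals, so p-values measure the spread between these samples. RNA was profiled by MAPS, a method that reads sequences next to poly(A) tails.

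Levels are given as normalised reads, which are reads divided by a library's size factor, recovered from the deposited log2-scale values. A difference is on that deposited log2 scale, given with its standard error (SE), and it understates the change of genes with few reads. The test was limma over all genes with Benjamini-Hochberg adjustment, and the threshold for calling a gene was an adjusted p below 0.05. The background is the percentage of all 12966 genes called in the same comparison. Summed over these 12966 genes, libraries held 4676444 to 20231121 recovered reads, with a median of 8353515. No comparison was made across sequencing groups.

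The targeted genes were checked first. Ptpn11 was lower in SKO than in WT non-tumour liver by a log2 difference of -1.12 ± 0.08 (SE, adjusted p = 6.18e-16). The library labelled SKO 3m replicate 2 went against its label, with 375 normalised reads of Ptpn11, against 107 to 197 in the other 19 SKO libraries. The member calls in SKO that used it are therefore given with and without it. Counts and summed levels of other gene lists in SKO include it. Ikbkb differed by -0.32 in IKO against WT non-tumour liver (adjusted p = 0.00258). By age it was called at 1 month alone, with means of 206 in IKO and 344 in WT, and it averaged 353 in IKO and 340 in WT at 3 months. At 1 month Ikbkb was also lower in SKO, at 232 (adjusted p = 0.00877). Met differed by -0.50 in MKO against WT tumours (adjusted p = 0.042). Ctnnb1 differed by -0.01 in BKO against WT non-tumour liver (adjusted p = 0.931). The read position within a targeted gene is not given, so these levels do not check a deletion upstream of the poly(A) end. All 9 measured hepatocyte markers were detected, and these tissues are mixtures, so fewer cells of a type and less RNA per cell cannot be told apart in any value that follows.

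Positions are from GENCODE M21 on GRCm38. Hmgcs1 lies at chr13:119690379-119708260 on the plus strand, Cyp51 at chr5:4081145-4104746 on the minus strand and Sqle at chr15:59315077-59331192 on the plus strand. Acat2 lies at chr17:12942890-12960747 on the minus strand and Srebf2 at chr15:82147181-82205379 on the plus strand. Whether the read counting used strand is not given in the sources used here. Cyp51 overlaps Akap9 on the other strand by 166 bases, and Hmgcs1 overlaps the antisense gene Gm48342 by 6190 bases. Acat2 also has a close paralog, Acat3, on the same chromosome, so its values carry some uncertainty from shared reads.

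Promoter sequences are shown for 3 members that were higher in WT tumours than in WT liver, since SREBP2 acts at sterol regulatory elements, usually with the factor NF-Y. Each window, from RefSeq on build GRCm38.p6, runs 300 bases across the start of the gene, in the direction of transcription. Capitals mark exact matches, on either strand, to TCACNCCAC (a sterol regulatory element) or CCAAT (NF-Y, written ATTGG when on the other strand). The Hmgcs1 window is chr13:119690101-119690400 (plus strand), the Cyp51 window chr5:4104648-4104947 (minus strand) and the Srebf2 window chr15:82147019-82147318 (plus strand).
Hmgcs1: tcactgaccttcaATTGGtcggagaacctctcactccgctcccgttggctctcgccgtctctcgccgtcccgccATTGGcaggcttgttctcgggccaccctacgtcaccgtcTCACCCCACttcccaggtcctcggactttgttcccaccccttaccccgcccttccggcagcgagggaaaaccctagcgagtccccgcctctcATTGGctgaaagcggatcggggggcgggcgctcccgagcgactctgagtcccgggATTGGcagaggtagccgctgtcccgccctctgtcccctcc
Cyp51: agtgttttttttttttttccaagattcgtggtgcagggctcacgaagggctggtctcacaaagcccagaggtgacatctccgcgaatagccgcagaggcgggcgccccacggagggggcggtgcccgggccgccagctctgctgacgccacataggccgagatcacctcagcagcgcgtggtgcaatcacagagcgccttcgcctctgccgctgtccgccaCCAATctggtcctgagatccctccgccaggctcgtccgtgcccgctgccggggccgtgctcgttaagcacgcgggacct
Srebf2: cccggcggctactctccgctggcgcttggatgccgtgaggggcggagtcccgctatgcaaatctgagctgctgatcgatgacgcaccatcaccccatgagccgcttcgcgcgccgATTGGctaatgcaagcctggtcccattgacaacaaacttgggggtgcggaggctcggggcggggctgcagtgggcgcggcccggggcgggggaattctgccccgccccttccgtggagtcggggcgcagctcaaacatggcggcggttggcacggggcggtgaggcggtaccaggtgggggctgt

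The Hmgcs1 window held 1 sterol regulatory element, which began 137 bases before the start site, and 4 NF-Y motifs. Cyp51 and Srebf2 each held 1 NF-Y motif and no exact sterol element, and the Acat2 window held none of these motifs. None of the 4 windows held the E-box CACGTG. Among all 32851 promoter windows of this length, 1.24% held the sterol element, 37.4% held NF-Y and 7.15% held the E-box. Sqle and Stard4 had no entry in the promoter table.

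Across the genotype-by-stage groups, the members differed in how widely their levels ranged. Hmgcs1 had the widest range: its highest group mean was 15.6 times its lowest in the first sequencing group and 13.3 times in the second. Sqle followed with 14.8 and 7.43 times, Cyp51 with 3.08 and 4 times, Acat2 with 2.94 and 1.97 times, Srebf2 with 2.43 and 2.78 times, and Stard4 with 1.87 and 2.81 times. These are ratios of mean normalised reads and have no test, and 3 of them moved on the deposited log2 scale.

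WT tumours had the highest mean in both sequencing groups for Hmgcs1, Cyp51, Sqle and Srebf2. Hmgcs1 averaged 1791 ± 836.9 normalised reads (SD, n = 4) in WT tumours of the first sequencing group. The next group, 3-month SKO liver, averaged 653.8 ± 300.3, and the lowest, 5-month IKO liver, averaged 114.8 ± 40.53 (SD, n = 4 each). Between them, each group but 1-month IKO liver differed from a neighbour in the order by less than the larger SD. In the second sequencing group Hmgcs1 averaged 1166 ± 803.3 in WT tumours and 753.6 ± 99.73 in BKO tumours, a difference within the larger SD, and 8-month MKO non-tumour liver was lowest at 87.83 ± 21.37 (SD, n = 3 each).

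Sqle separated tumours from liver most clearly in the first sequencing group, where the 3 tumour groups took the top 3 places. It averaged 538.5 ± 111.9 in WT tumours, 411.1 ± 48.39 in IKO tumours and 308.9 ± 145.2 in SKO tumours, above 180.5 ± 55.61 in 3-month SKO liver (SD, n = 4 each). IKO and SKO tumours differed by less than the larger SD, as did SKO tumours and 3-month SKO liver, and WT and IKO tumours by more. In the second sequencing group the top 3 were also tumours, at 201.2 ± 45.25 in WT, 171.3 ± 29.72 in BKO and 100.9 ± 28.13 in MKO (SD, n = 3 each), with WT and BKO closer than the larger SD. Srebf2 also had tumours in the top 3 places of both sequencing groups. Its lowest tumour group and highest liver group differed by less than the larger SD in both. In the first these were SKO tumours at 502.9 ± 235.9 and 1-month SKO liver at 432.4 ± 87.16 (SD, n = 4 each).

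Acat2, in the first sequencing group, and Stard4 had other orders. Acat2 was highest there in 3-month, 5-month and 1-month SKO liver, at 2708 ± 662.6, 2333 ± 502.7 and 2138 ± 571.7 (SD, n = 4 each). Its lowest mean there was 920.7 ± 278.9 in SKO tumours (SD, n = 4). In the second sequencing group Acat2 was highest in WT tumours at 1516 ± 523.7 and lowest in 1-month BKO liver at 770.3 ± 114.5 (SD, n = 3 each). Stard4 was highest in IKO tumours of the first sequencing group at 570.6 ± 98.23 (SD, n = 4). In the second it was highest in 3-month WT liver at 523.8 ± 124.4 and lowest in 8-month MKO non-tumour liver at 186.5 ± 5.857 (SD, n = 3 each).

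**Figure D1:**
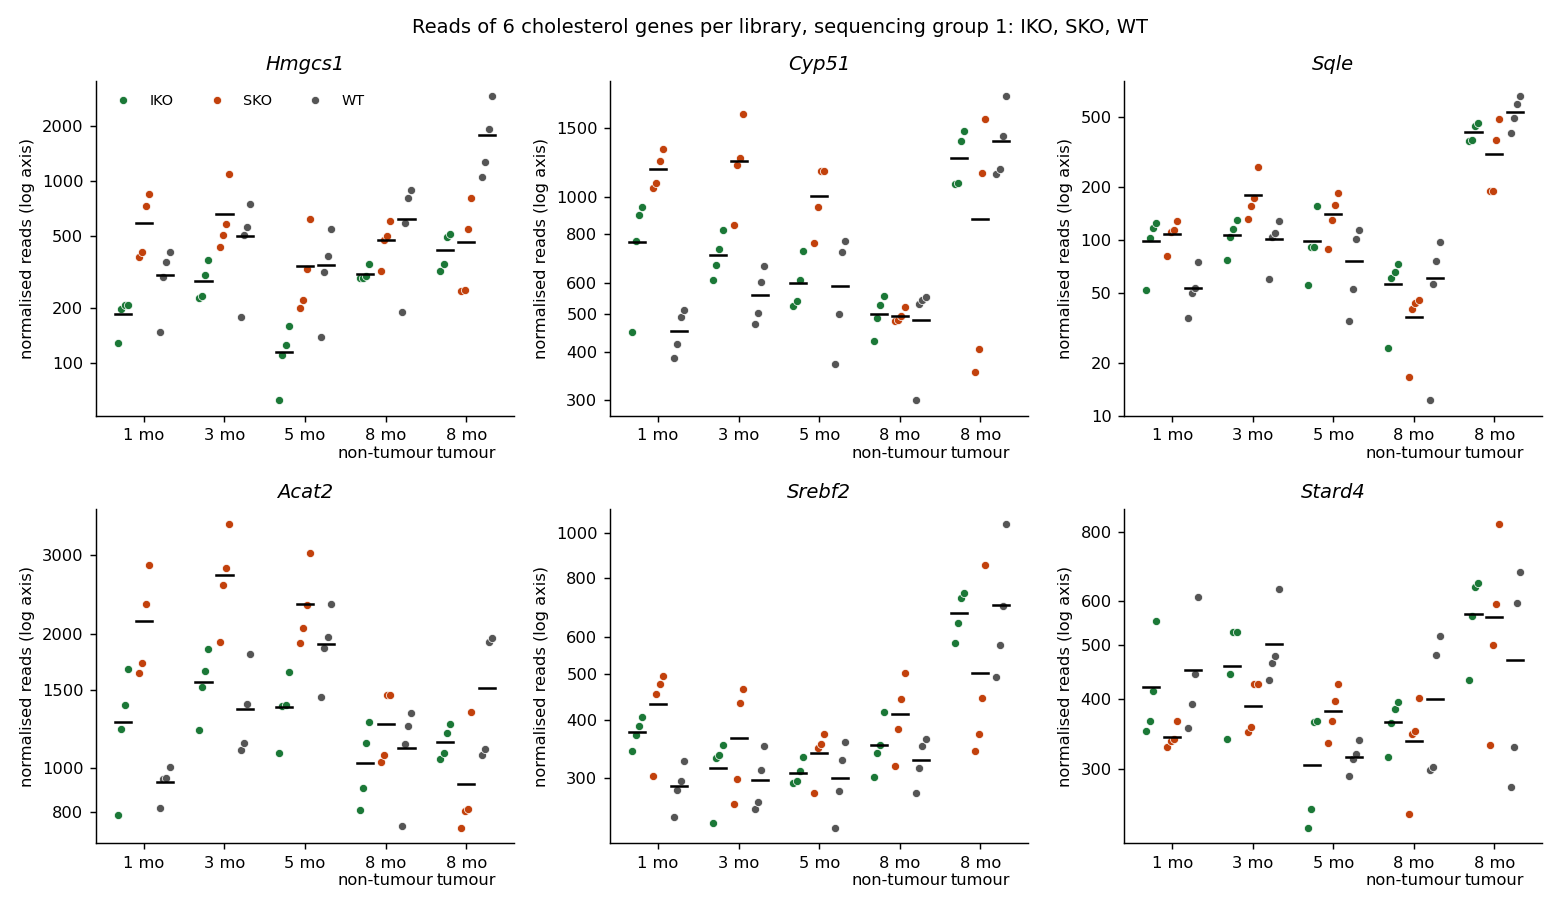
Normalised reads of the 6 measured members (log axis, 1 panel a gene) in every library of the first sequencing group, by stage, with IKO and SKO left of WT. Points are libraries sorted by value within a group and the black line is the group mean; Cyp51 and Acat2 lie higher in SKO than in WT at 1 and 3 months, and Hmgcs1 lies highest in WT tumours.

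**Figure D2:**
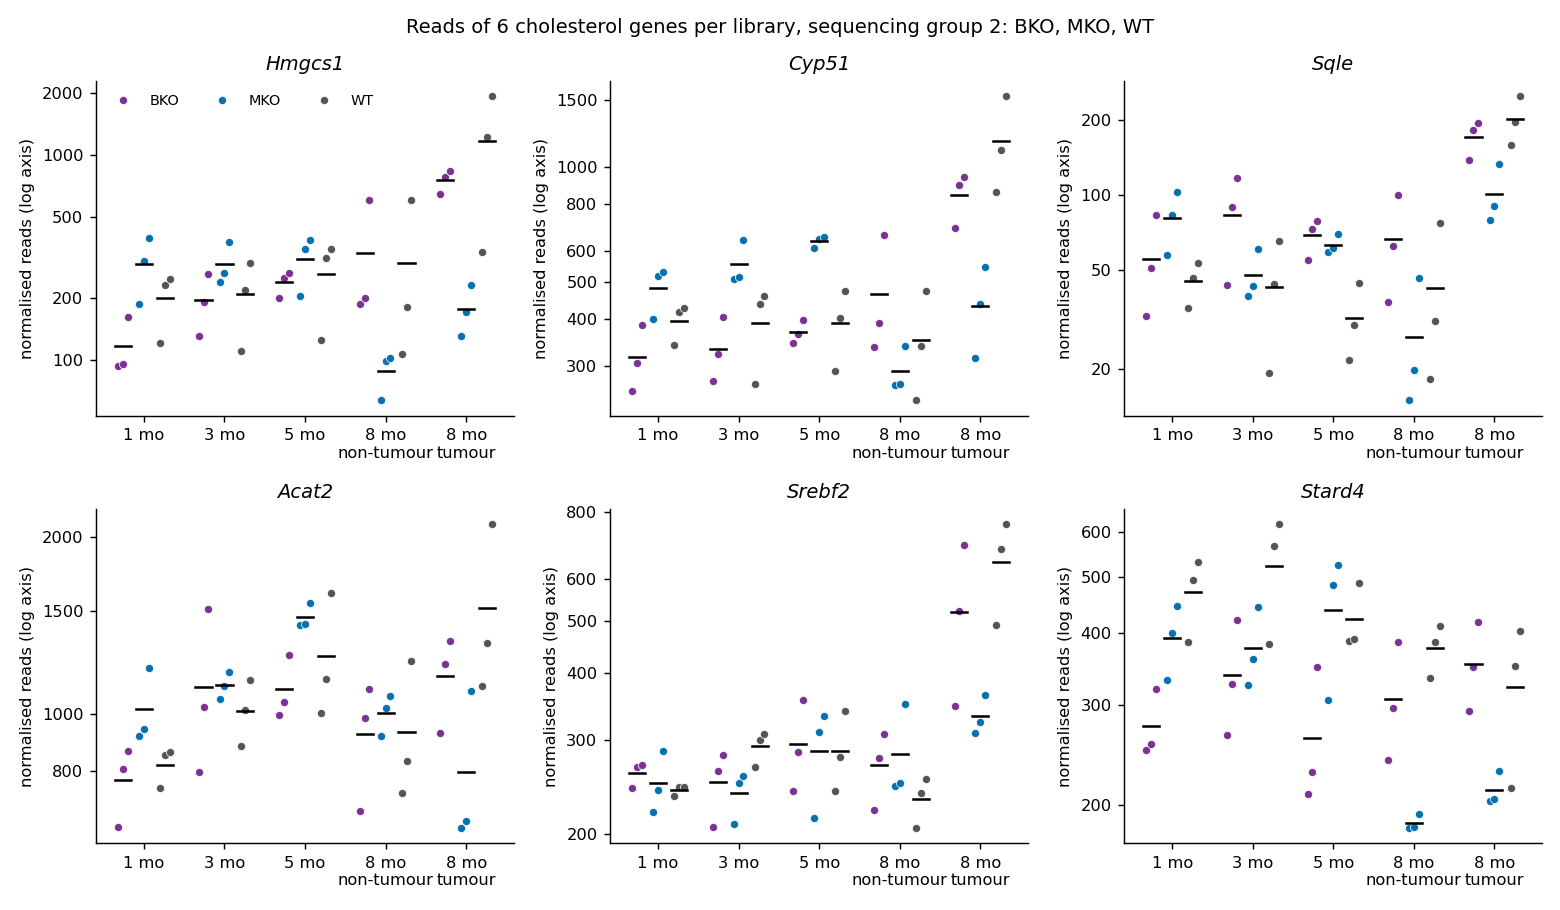
Normalised reads of the 6 measured members (log axis, 1 panel a gene) in every library of the second sequencing group, by stage, with BKO and MKO left of WT. Points are libraries sorted by value within a group and the black line is the group mean; Hmgcs1 and Stard4 are low in 8-month MKO non-tumour liver, and Cyp51, Sqle and Srebf2 are high in WT tumours.

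SKO was set against WT to ask how loss of Shp2, a phosphatase that transmits growth factor signals, went with these genes in liver at each age. Averaged over the 4 non-tumour stages, 4 of the 6 measured members were higher in SKO, against a background of 12% of all genes called higher and 22.9% called in either direction. They were the enzymes Cyp51, Acat2 and Sqle and the activator Srebf2. Leaving out the library labelled SKO 3m replicate 2 left 4 members called.

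Cyp51 ran from 480 through a median of 1068 to 1629 normalised reads in the 16 SKO libraries, against 300, 507 and 771 in the 16 WT libraries. Its log2 difference was 0.81 ± 0.13 (SE, adjusted p = 3.24e-06), and it was 0.86 without the doubted library (adjusted p = 1.13e-06). The median SKO library was above the highest WT library, though the lowest SKO libraries lay inside the WT range.

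Acat2 ran from 1036 through 1993 to 3529 in SKO libraries, against 740, 1193 and 2331 in WT libraries. Its difference was 0.65 ± 0.11 (SE, adjusted p = 8.62e-06), and 0.69 without the doubted library (adjusted p = 2.63e-06). The paralog Acat3 was higher too, by 0.47 (adjusted p = 3.31e-05), and the share of reads that the pair may exchange was not tested.

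Sqle ran from 16.5 through 121 to 260 in SKO libraries, against 12.2, 67.2 and 128 in WT libraries. Its difference was 0.47 ± 0.15 (SE, adjusted p = 0.0153). Srebf2 ran from 265 through 378 to 502 in SKO libraries, against 235, 305 and 363 in WT libraries. The Srebf2 difference was 0.31 ± 0.09 (SE, adjusted p = 0.0125), the smallest of those called. Without the doubted library the differences were 0.50 for Sqle (adjusted p = 0.0105) and 0.33 for Srebf2 (adjusted p = 0.00829). Leaving out any other single library ended none of these 4 calls.

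Hmgcs1 and Stard4 were not called. Hmgcs1 ran from 200 through 486 to 1096 in SKO libraries, against 139, 397 and 894 in WT libraries, with a difference of 0.28 ± 0.20 (SE, adjusted p = 0.326). Stard4 ran from 249 through 354 to 427 in SKO libraries, against 291, 413 and 633 in WT libraries, with a difference of -0.16 ± 0.10 (SE, adjusted p = 0.285). Both genes overlapped widely between the genotypes.

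By stage, the SKO differences were largest at 1 month. There 3 of 6 members were called, Cyp51, Acat2 and Srebf2, all higher, against a background of 8.74% called higher and 16.1% in either direction. At this age SKO and WT did not overlap for 3 members, Cyp51, Sqle and Acat2, all higher, where 11.7% of all genes were separated that way.

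Cyp51 had 1238, 1329, 1052 and 1084 normalised reads in the SKO libraries, against 386, 491, 419 and 513 in the WT libraries at 1 month. The lowest SKO library had 1052 and the highest WT library 513. The difference was 1.33 ± 0.26 (SE, adjusted p = 0.000229), a fold of 2.51.

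Acat2 had 2333, 2858, 1722 and 1638 in the SKO libraries, against 944, 953, 814 and 1006 in the WT libraries. Its lowest SKO library was well above the highest WT library. The difference was 1.15 ± 0.22 (SE, adjusted p = 0.000166), a fold of 2.21.

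Sqle had 114, 112, 81.1 and 127 in the SKO libraries, against 53.5, 50, 35.8 and 74.5 in the WT libraries. The groups did not overlap, but its difference of 0.79 ± 0.29 missed the threshold (SE, adjusted p = 0.0592), and it was called without WT 1m replicate 4 (adjusted p = 0.046) or in a fit of these groups alone (0.0158). Srebf2 had 454, 494, 304 and 478 in SKO libraries, against 249, 297, 284 and 327 in WT libraries, and overlapped through SKO replicate 3. Its difference was 0.52 ± 0.19 (SE, adjusted p = 0.0465). This call ended without SKO 1m replicate 1 (adjusted p = 0.1), 2 (0.136) or 4 (0.121), and without WT 1m replicate 1 (0.126), 2 (0.0822) or 3 (0.08). It also ended with quantile normalization (0.0751) and with no trend in the moderation (0.0509).

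At 3 months 2 of 6 members were called, both higher, against a background of 2.99% called higher and 5.19% in either direction. Cyp51 had 1209, 845, 1629 and 1254 in the SKO libraries, against 603, 501, 471 and 662 in the WT libraries. Acat2 had 2578, 1922, 3529 and 2805 in the SKO libraries, against 1140, 1100, 1390 and 1803 in the WT libraries. In both genes the second SKO value, from the library with Ptpn11 at the WT level, was the lowest of the 4 and still above every WT library.

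The 3-month differences were 1.08 ± 0.26 for Cyp51 (SE, adjusted p = 0.00911) and 0.98 ± 0.22 for Acat2 (SE, adjusted p = 0.0046). Without the doubted library the adjusted p was 0.00255 for Cyp51 and 0.00114 for Acat2. The Cyp51 call ended without SKO 3m replicate 3 (adjusted p = 0.0554), which left 1 member called. In a fit of the 3-month SKO and WT livers alone neither was called (adjusted p = 0.0793 for Cyp51 and 0.111 for Acat2), so the count of 2 became 0. Sqle was also higher in every SKO library and Stard4 lower, where 5.02% of all genes did not overlap upward and 3.85% downward, but neither was called (adjusted p = 0.163 and 0.399).

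At 5 months no member was called, against a background of 6.02%. Cyp51 had 939, 1166, 1163 and 759 in SKO libraries, against 721, 373, 499 and 771 in WT libraries. Its difference was 0.77 (adjusted p = 0.0606), and it was called without SKO 5m replicate 4 (adjusted p = 0.0454) or WT 5m replicate 4 (0.0458). Sqle differed by 0.78 (adjusted p = 0.104) and Acat2 by 0.29 (adjusted p = 0.489).

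At 8 months no member was called in non-tumour liver, against a background of 5.03%. Cyp51 had 480, 483, 494 and 520 in SKO libraries, against 543, 300, 552 and 530 in WT libraries, a difference of 0.07 (adjusted p = 0.924). The 4 SKO libraries lay close together, inside the WT range. Acat2 differed by 0.19 (adjusted p = 0.712) and Sqle by -0.38 (adjusted p = 0.541).

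Whether the SKO difference itself varied between the 4 stages was tested by an F test of the interaction. No member passed it, against a background of 5.68%. The adjusted p was 0.0636 for Acat2, 0.0824 for Cyp51, 0.122 for Sqle and 0.43 for Hmgcs1, so a difference between the ages was not shown for the members. Acat2 passed without the library labelled SKO 3m replicate 2 (adjusted p = 0.0378), SKO 5m replicate 2 (0.0461), WT 3m replicate 4 (0.044) or WT 5m replicate 2 (0.0464). Without WT 8m_NT replicate 2, 3 members passed, Sqle (adjusted p = 0.0189), Acat2 (0.0308) and Cyp51 (0.0411).

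The other enzymes of cholesterol synthesis were counted from a list of 16. In SKO non-tumour liver 9 were higher and 0 lower, with a median log2 difference of 0.448, against 0.010 over all genes. Among them were Nsdhl, a sterol dehydrogenase, by 0.69 (adjusted p = 7.48e-05) and Msmo1, a sterol oxidase, by 0.78 (8.8e-05). By age, 10 were higher at 1 month, 5 at 3 months, 1 at 5 months and 0 at 8 months. The 10 became 6 without SKO 1m replicate 2, and the 5 became 0 without SKO 3m replicate 3, 1 without SKO 3m replicate 4 or WT 3m replicate 2 and 2 without WT 3m replicate 1. The 1 at 5 months was lost without SKO 5m replicate 2, 3 or 4 or WT 5m replicate 2, 3 or 4. Those that passed the interaction test between stages included Pmvk, phosphomevalonate kinase, and Nsdhl (adjusted p = 0.0171 and 0.0241). Nsdhl missed it without SKO 8m_NT replicate 1 or WT 1m replicate 2 (adjusted p up to 0.0593).

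Among 13 genes of SREBP processing and other SREBP2 targets, 4 were higher and 3 lower in SKO. Tmem97, a sterol-responsive membrane protein, was higher by 0.56 (adjusted p = 2.57e-07) and Rnf145, a sterol-linked ubiquitin ligase, by 0.41 (0.000925). Srebf1, which encodes the related factor SREBP1, was lower by 0.74 on the log2 scale (-0.74, adjusted p = 0.000105). Among 12 sterol efflux and LXR genes 3 were lower and 1 higher. The background for both lists is 12% of all genes called higher and 22.9% in either direction. Abcg8, part of the biliary sterol exporter, differed by -0.91 (adjusted p = 8.55e-08) and the exporter Abca1 by -0.43 (4.51e-06). Cyp7a1, the first enzyme of bile acid synthesis, differed by 1.47 (2.59e-06). The efflux count of 1 higher became 2 without WT 5m replicate 1.

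Other cell types moved with the same comparison. In SKO non-tumour liver 13 of 14 macrophage markers were higher, with summed levels of 2781 to 9211 (median 7328), against 2259 to 8154 (median 3555) in WT. Of 9 hepatocyte markers 5 were lower, summing to 268435 to 849694 (median 366069) in SKO, against 310220 to 956004 (median 756911) in WT. Of 9 proliferation genes 7 were higher, summing to 128 to 647 (median 265) in SKO, against 102 to 331 (median 156) in WT. No marker gene was at 0 throughout, and the part of these shifts in the result was not tested.

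IKO was set against the same WT libraries, so the IKO and SKO comparisons share controls. Averaged over the 4 non-tumour stages, 1 of 6 members was called, Hmgcs1, which was lower. The background was 5.17% called lower and 9.04% in either direction. Hmgcs1 ran from 62.2 through a median of 217 to 367 normalised reads in the 16 IKO libraries, against 139, 397 and 894 in the 16 WT libraries. The difference was -0.82 ± 0.20 (SE, adjusted p = 0.00452), and its adjusted p stayed between 0.000759 and 0.0106 when any single library was left out.

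Cyp51 ran from 427 through 611 to 943 in IKO libraries, against 300, 507 and 771 in WT libraries, and differed by 0.29 ± 0.13 (SE, adjusted p = 0.159). Sqle differed by 0.27 (adjusted p = 0.271), Srebf2 by 0.14 (0.374), Acat2 by 0.01 (0.974) and Stard4 by -0.09 (0.651). At the single stages no IKO member was called, against backgrounds of 9.17%, 0.201%, 1.45% and 0.201% at 1, 3, 5 and 8 months.

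Hmgcs1 was lowest at 5 months, with 111, 126, 160 and 62.2 in IKO libraries, against 542, 139, 318 and 387 in WT libraries. The second WT library lay inside the IKO range and the other 3 were above it. The difference was -1.32 ± 0.39 (SE, adjusted p = 0.0665), called without WT 5m replicate 2 (adjusted p = 0.0336). At 1, 3 and 8 months it was -0.57, -0.63 and -0.75 (adjusted p = 0.397, 0.805 and 0.807), and the interaction between stages, with a background of 0.0694%, had an adjusted p of 0.813.

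At 1 month Srebf2 did not overlap, with 387, 343, 372 and 405 in IKO libraries, against 249, 297, 284 and 327 in WT libraries. It was higher in all 4 IKO libraries, where 9.25% of all genes did not overlap upward, and was not called (0.36, adjusted p = 0.236). Cyp51 at 1 month had 899, 450, 769 and 943 in IKO libraries, against 386, 491, 419 and 513 in WT libraries. It differed by 0.68 (adjusted p = 0.0862) and was called without IKO 1m replicate 2 (0.0319), which was the lowest IKO library in all 6 members.

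Of the 16 other synthesis enzymes 2 were higher in IKO non-tumour liver and 0 lower, with a median of 0.251, against 0.002 over all genes. They were Mvk, mevalonate kinase, by 0.42 (adjusted p = 0.0337) and Nsdhl by 0.42 (0.034). The count was 0 without IKO 1m replicate 1 or 4, IKO 5m replicate 3, WT 3m replicate 1 or 2, WT 5m replicate 2 or WT 8m_NT replicate 2. It was 1 without IKO 3m replicate 3, WT 1m replicate 2 or WT 5m replicate 3.

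The 2 knockouts were also set against each other directly. In SKO against IKO non-tumour liver 3 of 6 members were called, all higher, against a background of 11.5% called higher and 22.1% in either direction. Hmgcs1 differed by 1.10 ± 0.20 (SE, adjusted p = 2.33e-05), with means of 514.2 in SKO and 222.9 in IKO. Acat2 differed by 0.64 ± 0.11 (SE, adjusted p = 1.1e-05), with means of 2109 in SKO and 1307 in IKO. Cyp51 differed by 0.52 ± 0.13 (SE, adjusted p = 0.00199), with means of 977.7 in SKO and 643.5 in IKO. All 3 calls held when any single library was left out, the doubted one included.

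BKO and MKO were set against the WT libraries of the second sequencing group. In BKO non-tumour liver over the 4 stages 2 of 6 members were called, Stard4 lower and Sqle higher, against a background of 9.04% called lower, 10.6% called higher and 19.6% in all. Stard4 ran from 209 through a median of 281 to 421 normalised reads in the 12 BKO libraries, against 333, 400 and 620 in the 12 WT libraries. Its difference was -0.56 ± 0.11 (SE, adjusted p = 0.000187). Sqle ran from 32.6 through 67.9 to 117 in BKO libraries, against 18.4, 39.6 and 77.1 in WT libraries, a difference of 0.53 ± 0.15 (SE, adjusted p = 0.0113). Both calls held when any 1 of the 24 libraries was left out, and both genes overlapped between the genotypes.

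The remaining members in BKO differed by -0.11 for Hmgcs1 (adjusted p = 0.794), -0.04 for Cyp51 (0.83), -0.04 for Acat2 (0.832) and 0.02 for Srebf2 (0.882). At the single stages 1 call was made, Stard4 lower at 1 month, against a background of 2.53% called lower and 4.37% in either direction. It had 256, 250 and 319 in BKO libraries, against 533, 385 and 495 in WT libraries, with every BKO library below every WT library, where 12.9% of all genes did not overlap downward. The difference was -0.72 ± 0.21 (SE, adjusted p = 0.0428). This call ended without BKO 1m replicate 1 (adjusted p = 0.132) or 2 (0.173) and without WT 1m replicate 1 (0.13), 2 (0.0546) or 3 (0.141), and with limma-voom (0.0574).

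At 3, 5 and 8 months Stard4 in BKO differed by -0.59, -0.66 and -0.29 (adjusted p = 0.18, 0.0529 and 0.448), with backgrounds of 1.54%, 6.44% and 4.91%. No member passed the interaction between stages in BKO (background 0.663%). At 5 months it had 229, 349 and 209 in BKO libraries, against 490, 388 and 390 in WT libraries, and was called without BKO 5m replicate 2 (adjusted p = 0.0186). Sqle at 5 months had 54.9, 73.3 and 78.5 in BKO libraries, against 21.9, 30.1 and 44.6 in WT libraries, a difference of 0.75 (adjusted p = 0.126). Both genes separated the groups at this age, where 14.5% of all genes did not overlap upward and 12.5% downward.

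Among the 16 other synthesis enzymes 3 were higher and 2 lower in BKO non-tumour liver, with a median of -0.085, against 0.011 over all genes. Those lower were Tm7sf2, a sterol reductase, by -0.36 (adjusted p = 0.00889) and Hsd17b7, which also acts late in the pathway, by -0.37. The 3 higher became 0 without BKO 5m replicate 3, BKO 8m_NT replicate 1 or WT 5m replicate 1. They became 1 without BKO 1m replicate 3, BKO 3m replicate 2 or 3, WT 1m replicate 2, WT 3m replicate 3 or WT 8m_NT replicate 2. The 2 lower became 1 without BKO 3m replicate 1, BKO 5m replicate 2, WT 3m replicate 1 or WT 8m_NT replicate 1.

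Other cell types also moved in BKO. Stellate cell and fibroblast markers were higher in 9 of 9, summing to 3764 to 6270 (median 4741) in BKO, against 2164 to 4188 (median 2503) in WT. Cholangiocyte markers were higher in 5 of 5, summing to 229 to 834 (median 443) in BKO, against 113 to 191 (median 156) in WT. Macrophage markers were higher in 7 of 14, summing to 4978 to 8960 (median 6716) in BKO, against 3120 to 9111 (median 4569) in WT. Their part in the Stard4 and Sqle results was not tested.

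In MKO non-tumour liver 1 of 6 members was called, Stard4, which was lower, against a background of 1.13% called lower and 2.71% in either direction. Stard4 ran from 183 through a median of 346 to 525 in the 12 MKO libraries, against 333, 400 and 620 in the 12 WT libraries. Its difference was -0.39 ± 0.11 (SE, adjusted p = 0.0358). The call ended when any 1 of 13 of the 24 libraries was left out, with adjusted p up to 0.0867. Those were MKO 1m replicates 2 and 3, MKO 3m replicates 1 and 3, MKO 5m replicate 1 and MKO 8m_NT replicate 2, and WT 1m replicates 1 and 3, WT 3m replicates 1 and 2, WT 5m replicate 1 and WT 8m_NT replicates 1 and 3.

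The MKO difference in Stard4 was -0.25 at 1 month, -0.43 at 3 months and 0.03 at 5 months, none of them called (adjusted p = 0.849, 0.656 and 0.989), with backgrounds of 0.185%, 0.0231% and 0.0463%. At 8 months 1 of 6 members was called, again Stard4, against a background of 2.23% called lower and 5.74% in either direction. Stard4 had 184, 183 and 193 in MKO libraries, against 385, 333 and 411 in WT libraries of 8-month non-tumour liver. The 3 MKO libraries lay close together, below every WT library, and 10.9% of all genes did not overlap downward.

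That difference was -0.91 ± 0.21 (SE, adjusted p = 0.0108), and the call ended without MKO 8m_NT replicate 2 or WT 8m_NT replicate 1 (adjusted p up to 0.0702), or in a fit of these groups alone (0.0848). Hmgcs1 had 63.2, 98.4 and 102 in MKO libraries, against 601, 107 and 180 in WT libraries. The groups did not overlap, though the second WT library was only just above the MKO libraries. The difference of -1.20 ± 0.48 missed the threshold (SE, adjusted p = 0.125) and was called without WT 8m_NT replicate 2 (0.0457). No member passed the interaction between stages in MKO, where Stard4 had an adjusted p of 0.275 and the background was 0.339%.

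Other members separated MKO from WT at single ages without being called. At 1 month Sqle and Acat2 were higher in every MKO library, where 8.77% of all genes did not overlap upward. At 3 months Cyp51 was higher and Srebf2 lower in every MKO library, where 8.11% of all genes did not overlap upward and 7.94% downward. Cyp51 at 5 months had 653, 649 and 614 in MKO libraries, against 292, 401 and 473 in WT libraries. It was higher in every MKO library, as was Sqle, where 8.74% of all genes did not overlap upward. Neither was called (Cyp51 0.70, adjusted p = 0.267, and Sqle 0.67, adjusted p = 0.484). Set directly against MKO over the non-tumour stages, BKO differed in 1 called member, Cyp51, by -0.36 ± 0.12 (SE, adjusted p = 0.0298), against a background of 7.86% called lower and 15% in either direction. Its means were 370.5 in BKO and 492 in MKO, and the libraries overlapped. That call ended with quantile normalization (adjusted p = 0.0613) and without BKO 1m replicate 1, BKO 3m replicate 1, BKO 8m_NT replicate 2 or 3, MKO 1m replicate 1, MKO 3m replicate 1 or MKO 8m_NT replicate 2 (adjusted p up to 0.0661).

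In MKO non-tumour liver 0 of the 16 other synthesis enzymes were called in either direction, with a median of 0.081, against 0.007 over all genes. Of 9 hepatocyte markers 2 were lower, Alb by -0.81 (adjusted p = 0.00112) and Apob by -0.37 (0.0406). These markers summed to 413367 to 745338 (median 479529) in MKO, against 408794 to 961938 (median 768107) in WT. The 2 became 1 without MKO 1m replicate 2 or 3, MKO 3m replicate 1 or 3, MKO 5m replicate 2 or 3 or MKO 8m_NT replicate 2, and without WT 1m replicate 1 or 3, WT 3m replicate 3, WT 5m replicate 1 or 2 or WT 8m_NT replicate 1. Macrophage markers summed to 2474 to 15571 (median 5779) in MKO, against 3120 to 9111 (median 4569) in WT, with 1 of 14 called higher, Marco, by 0.98 (adjusted p = 0.0413). That call ended without MKO 1m replicate 2 or 3, any MKO 3m library, MKO 5m replicate 2 or MKO 8m_NT replicate 1 or 2, and without WT 1m replicate 1 or 3, WT 3m replicate 1 or 2, WT 5m replicate 1 or 3 or WT 8m_NT replicate 1 or 3. The part of these shifts in the Stard4 result was not tested.

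**Figure D3:**
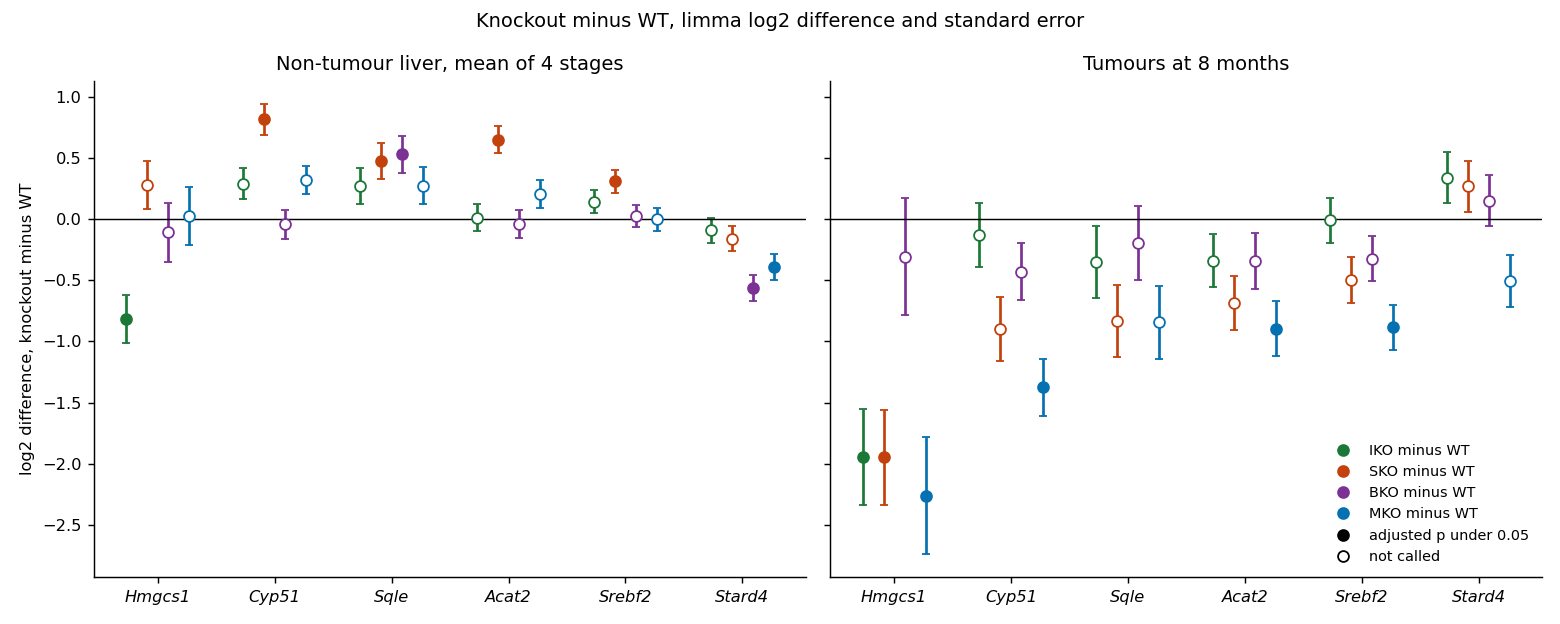
Log2 difference of each knockout against WT (vertical axis, deposited log2 scale) for the 6 members, with SE bars. The panels show non-tumour liver averaged over the stages, and 8-month tumours. Filled points were called at an adjusted p under 0.05 and open points were not. Differences at single stages are given in the text and are not drawn.

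Tumours were set against 8-month non-tumour liver of the same genotype. Sqle was higher in tumours of all 6 genotype sets, and it was the only member called in all of them. In WT 4 of 6 members were higher in the first sequencing group, against a background of 22.9% called higher, and 5 of 6 in the second, against 15%. The members shared by both were Hmgcs1, Cyp51, Sqle and Srebf2.

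Sqle had 597, 494, 658 and 405 normalised reads in WT tumours of the first sequencing group, against 75.6, 12.2, 56.3 and 97.9 in WT non-tumour liver. Its difference was 2.84 ± 0.29 (SE, adjusted p = 2.89e-11). Every tumour library was at least 4 times the highest non-tumour library. In the second sequencing group it had 158, 197 and 249 in WT tumours, against 77.1, 18.4 and 31.2 in non-tumour liver, a difference of 1.85 (adjusted p = 1.83e-05).

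In the knockouts the Sqle groups did not overlap either. IKO had 368, 444, 461 and 371 in tumours, against 61.1, 24.2, 73.4 and 65.6 in non-tumour liver, a difference of 2.47 ± 0.29 (SE, adjusted p = 3.79e-09). SKO had 190, 191, 369 and 486 in tumours, against 43.6, 40.5, 16.5 and 45.3 in non-tumour liver, a difference of 2.39 (adjusted p = 3.6e-09). The SKO tumours fell into a lower and a higher pair, both far above the liver.

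BKO had 194, 182 and 138 of Sqle in tumours, against 100, 37.3 and 62.5 in non-tumour liver. Its difference was 1.15 ± 0.30 (SE, adjusted p = 0.00862), and the call ended without BKO 8m_NT replicate 2 (adjusted p = 0.0995) or in a fit of these groups alone (0.0737). MKO had 133, 79.2 and 90.7 in tumours, against 19.9, 46.3 and 15 in non-tumour liver, a difference of 1.35 (adjusted p = 0.00203, and 0.0619 in a fit of these groups alone). These were the smallest Sqle differences of the 6, but the difference of the tumour effect between knockout and WT was called for no member in any knockout.

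Hmgcs1 was called higher in WT tumours but in no knockout's tumours. It had 1054, 1927, 2915 and 1267 in WT tumours of the first sequencing group, against 805, 190, 587 and 894 in non-tumour liver, a difference of 1.57 (adjusted p = 0.000905). In the second it had 335, 1226 and 1938 in WT tumours, against 601, 107 and 180 in non-tumour liver, a difference of 1.89 ± 0.48 (SE, adjusted p = 0.00295). The groups overlapped in the second set through WT tumour replicate 1 and liver replicate 1.

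In IKO the Hmgcs1 difference was 0.39 (adjusted p = 0.477), in SKO -0.17 (0.773) and in MKO 0.83 (0.245). In BKO it was 1.30 (adjusted p = 0.0615), with 778, 839 and 644 in tumours, against 606, 200 and 188 in non-tumour liver. Every BKO tumour was above every BKO liver, and the difference was called without BKO 8m_NT replicate 1 (adjusted p = 0.00993). It was also called with the replicate number as a block (1.30 ± 0.30, SE, adjusted p = 0.0422). BKO tumours and livers of the same number deviated together, and so did MKO and WT 8-month non-tumour livers.

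Cyp51 was called higher in IKO, BKO and both WT tumour sets. It had 1088, 1078, 1393 and 1477 in IKO tumours, against 528, 427, 487 and 556 in IKO non-tumour liver, a difference of 1.28 (adjusted p = 0.000109). It had 1176, 1434, 1812 and 1146 in WT tumours, against 543, 300, 552 and 530 in WT non-tumour liver of the first sequencing group, a difference of 1.49 (adjusted p = 4.69e-06). Every tumour library in both was above every non-tumour library.

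In the second sequencing group Cyp51 had 862, 1109 and 1534 in WT tumours, against 473, 244 and 339 in WT non-tumour liver, a difference of 1.66 (adjusted p = 2.08e-06). The BKO difference was 0.87 (adjusted p = 0.00975) and was lost without BKO 8m_NT replicate 2 or 3 or BKO 8m_T replicate 1 (adjusted p up to 0.104), or in a fit of these groups alone (0.114). In SKO Cyp51 had 405, 354, 1152 and 1585 in tumours, against 480, 483, 494 and 520 in non-tumour liver. Thus 2 SKO tumours lay below and 2 far above the liver, and the difference of 0.52 was not called (adjusted p = 0.104). It was called without SKO 8m_T replicate 1 (adjusted p = 0.016) or 2 (0.00702). In MKO it was 0.50 (adjusted p = 0.14).

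Srebf2, the activator itself, was called higher in the tumours of the same 4 sets as Cyp51. It had 581, 643, 725 and 743 in IKO tumours, against 341, 302, 416 and 353 in IKO non-tumour liver, a difference of 0.88 (adjusted p = 0.000201). In WT it differed by 0.99 (adjusted p = 2.08e-05) in the first sequencing group and 1.36 (1.29e-06) in the second, and in BKO by 0.85 (0.00177, and 0.113 in a fit of the BKO groups alone). In SKO and MKO it differed by 0.20 and 0.23 (adjusted p = 0.421 and 0.425).

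Acat2 was called higher only in WT tumours of the second sequencing group, by 0.67 (adjusted p = 0.0252), and that call was lost without WT 8m_NT replicate 2 or 3 or WT 8m_T replicate 3 (adjusted p up to 0.24). In a fit of those groups alone it was not called (adjusted p = 0.156), nor was Hmgcs1 (0.12). In the first sequencing group Acat2 differed by 0.41 (adjusted p = 0.125), and with quantile normalization by 0.62, where it was called (0.0164). In SKO tumours Acat2 differed by -0.46 (adjusted p = 0.0887), and it was called lower without SKO 8m_T replicate 4 (0.0213). Acat3, the paralog, was lower in tumours of the first sequencing group, by -0.84 in IKO and -1.63 in WT.

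Stard4 was called higher in IKO tumours, with 434, 636, 564 and 648 in tumours, against 396, 363, 315 and 385 in non-tumour liver. Every IKO tumour was above every IKO liver, and the difference was 0.60 ± 0.21 (SE, adjusted p = 0.0215). In SKO it had 501, 331, 593 and 826 in tumours, against 347, 249, 402 and 352 in non-tumour liver, a difference of 0.64 ± 0.21 (SE, adjusted p = 0.0106). The IKO call ended without IKO 8m_NT replicate 3 (adjusted p = 0.0637) or IKO 8m_T replicate 2 (0.0665) or 4 (0.0649). The SKO call ended without SKO 8m_NT replicate 2 (adjusted p = 0.0632) or SKO 8m_T replicate 4 (0.102), or in a fit of these groups alone (0.0567).

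The counts of members called in tumours against liver were 4 in IKO, 2 in SKO, 3 in BKO and 1 in MKO. All were higher, and the backgrounds of genes called higher were 18.2%, 21%, 8.39% and 9.76% in that order. Genes called in either direction made up 33.3%, 39.7%, 14.7% and 17.3%, and 42.1% and 27.1% in the WT sets.

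Tumours were above liver without overlap in 4 members in IKO, 1 in SKO, 4 in BKO and 3 in MKO, where 16.2%, 18.3%, 14.3% and 14.9% of all genes were. In WT 4 members were separated this way in the first sequencing group and 3 in the second, against 18.9% and 19.7% of all genes.

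The rest of the pathway was counted in the same comparisons. Of the 16 other synthesis enzymes 11 were higher and 1 lower in WT tumours of both sequencing groups, with medians of 1.077, against 0.035 over all genes, and 1.048, against 0.016. Lss, lanosterol synthase, was higher by 2.56 (adjusted p = 4.71e-10) in the first and 2.42 (1.36e-06) in the second. The only enzyme lower was Ggps1, which makes the isoprenoid geranylgeranyl diphosphate, in the first, and Ebp, a sterol isomerase, in the second. The Ebp call was lost without any 1 of WT 8m_NT replicates 1, 2 and 3 and WT 8m_T replicates 1 and 2.

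In the knockouts the same enzymes were higher in 9 of 16 in IKO, 8 in SKO, 7 in BKO and 4 in MKO tumours. In IKO Ggps1 was lower, a call lost without IKO 8m_NT replicate 1, 2 or 4 or IKO 8m_T replicate 1, 3 or 4. In MKO Ebp was lower, a call lost without MKO 8m_NT replicate 3 or MKO 8m_T replicate 1 or 2. The SKO count was 5 without SKO 8m_T replicate 4. The BKO count was 11 without BKO 8m_NT replicate 1, 3 without BKO 8m_NT replicate 3 or BKO 8m_T replicate 2, and 1 without BKO 8m_NT replicate 2 or BKO 8m_T replicate 1. Mvk was higher by 1.28 in BKO tumours (adjusted p = 0.000104) and by 1.08 in MKO tumours (0.00049).

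Of the 13 SREBP-linked genes 7 were higher and 1 lower in WT tumours of the first sequencing group, where the 1 became 2 without WT 8m_T replicate 2, and 3 were higher in the second. Tmem97 was higher by 1.78 (adjusted p = 2.77e-13) in the first. Cyp7a1 was lower in every tumour set, by -1.99 in IKO, -4.19 in SKO, -2.75 in BKO, -3.14 in MKO and -3.56 and -2.57 in the WT sets. Other markers moved with the tumour comparison. Proliferation genes were higher in 8 of 9 in both WT tumour sets. In the first set these summed to 434 to 848 (median 657) in WT tumours, against 102 to 331 (median 156) in WT non-tumour liver of all ages. Hepatocyte markers summed to 1450588 to 1909036 in WT tumours, against 310220 to 732082 in 8-month non-tumour liver of the first sequencing group, with 3 of 9 higher and 3 lower, or 1 lower without WT 8m_T replicate 2. In the second they summed to 881436 to 1516760 in WT tumours, against 408794 to 736760 in non-tumour liver, with 2 higher and 1 lower. Of 5 cholangiocyte markers 2 were higher in both sets, Spp1 with a fold of 9.88 (adjusted p = 6.31e-08) and Sox9 of 2.03 (0.00226) in the first. Krt19, Krt7 and Epcam were not called in the first, with folds of 1.09, 1.01 and 0.951. Stellate cell and fibroblast markers were higher in 5 of 9 and lower in 2 in the first, where the 5 became 3 without WT 8m_NT replicate 3 or WT 8m_T replicate 1 or 4. In the second 3 were higher and 2 lower. The part of these shifts in the members' result was not tested.

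**Figure D4:**
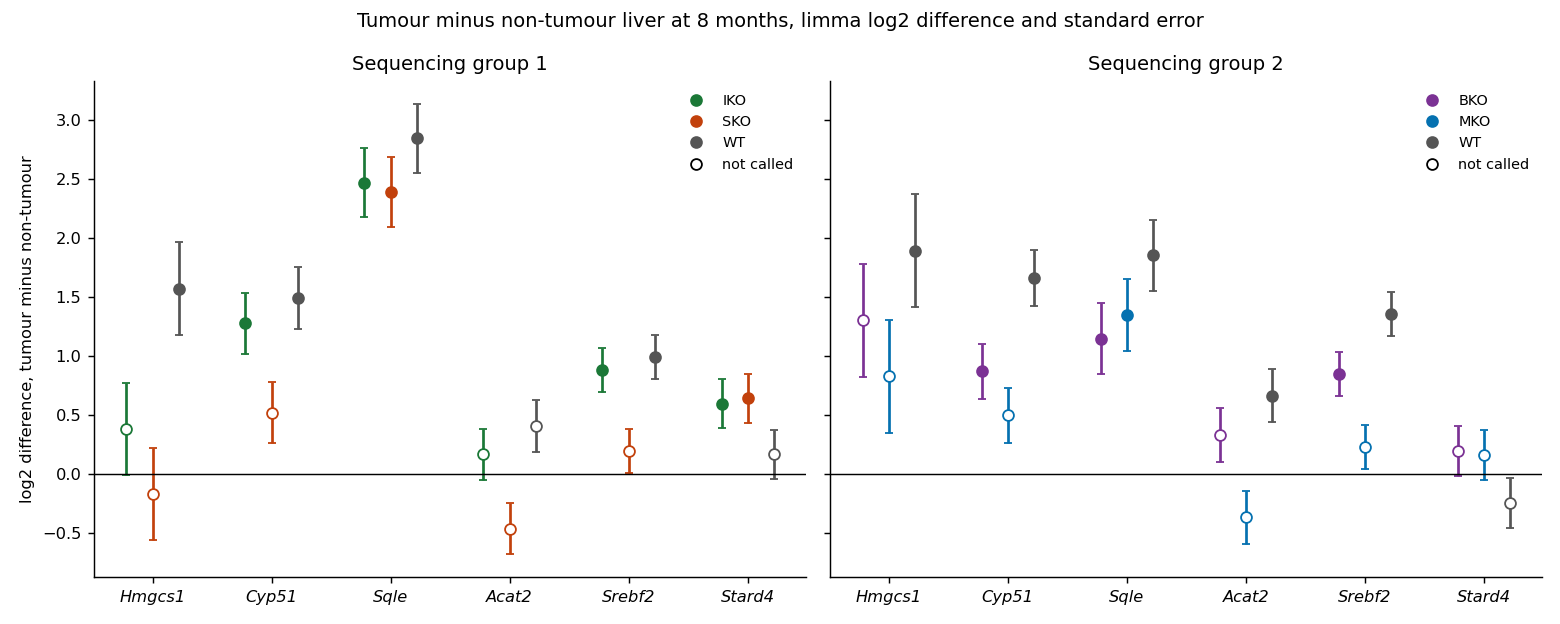
Log2 difference of 8-month tumours against 8-month non-tumour liver of the same genotype (vertical axis, deposited log2 scale, SE bars) for the 6 members, with 1 panel for each sequencing group; filled points were called. Sqle stands highest in IKO, SKO and WT of the first sequencing group, at 2.47, 2.39 and 2.84.

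Tumours of each knockout were then set against WT tumours of the same sequencing group. Hmgcs1 was lower in IKO, SKO and MKO tumours and not called in BKO tumours. It had 348, 322, 492 and 514 in IKO tumours and 250, 249, 542 and 802 in SKO tumours, against 1054, 1927, 2915 and 1267 in WT tumours. Every IKO and SKO tumour was below every WT tumour, where 3.13% of all genes in IKO and 2.89% in SKO did not overlap downward.

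The IKO difference in Hmgcs1 was -1.94 ± 0.39 (SE, adjusted p = 0.0013), a fold of 0.26. It was the only one of 6 members called, against a background of 1.13% called lower and 3.6% in either direction, and it held when any 1 of the 8 libraries was left out. Cyp51 and Srebf2 differed in IKO by -0.13 and -0.01 (adjusted p = 0.862 and 0.986), Sqle by -0.35 (0.598), Acat2 by -0.34 (0.454) and Stard4 by 0.34 (0.435). Of the 16 other synthesis enzymes 0 were called in either direction in IKO tumours, with a median of -0.112, against -0.013 over all genes.

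The SKO difference in Hmgcs1 was -1.95 ± 0.39 (SE, adjusted p = 0.00199), and it was the only one of 6 called, against a background of 1.04% called lower and 1.72% in either direction. It held when any 1 of the 8 libraries was left out, but not in a fit of these groups alone (adjusted p = 0.129). Cyp51 was 405, 354, 1152 and 1585 in SKO tumours, against 1176, 1434, 1812 and 1146 in WT tumours, and its difference was -0.90 ± 0.26 (SE, adjusted p = 0.0546), or -0.92 and called with quantile normalization (0.0497). SKO tumour replicate 4 was the highest SKO tumour in all 6 members. Without it, 4 members were called lower in SKO, Hmgcs1 among them, with adjusted p of 0.00147 for Cyp51, 0.0283 for Acat2 and 0.00937 for Srebf2. Cyp51 was also called without SKO 8m_T replicate 3 (adjusted p = 0.0215) or WT 8m_T replicate 4 (0.0417), and Acat2 without WT 8m_T replicate 1 (0.0448) or 4 (0.0419), so that the count was 2 or 3 without 1 of these.

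In SKO tumours 1 of the 16 other enzymes was lower, Ebp, by -0.51 (adjusted p = 0.0499). That count was 0 without SKO 8m_T replicate 1 or 2 or WT 8m_T replicate 2 or 3, 2 without WT 8m_T replicate 4 and 4 without SKO 8m_T replicate 4. Macrophage markers summed to 5295 to 6429 (median 6050) in SKO tumours, against 2902 to 4291 (median 3210) in WT tumours, and 4 of 14 were called higher. That 4 became 1 without SKO 8m_T replicate 1 or 3 or WT 8m_T replicate 1 or 2, and 2 without SKO 8m_T replicate 2. In IKO tumours these markers summed to 3359 to 4896 (median 4013) and 0 of 14 were called. The part of macrophage markers in the Hmgcs1 results was not tested in either knockout.

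In MKO tumours 4 of 6 members were lower, Hmgcs1, Cyp51, Srebf2 and Acat2, against a background of 1.04% called lower and 4.03% in either direction. All members but Stard4 had every MKO tumour below every WT tumour, where 7.15% of all genes did not overlap downward. Hmgcs1 had 171, 131 and 231 in MKO tumours, against 335, 1226 and 1938 in WT tumours. Cyp51 had 436, 315 and 545 in MKO tumours, against 862, 1109 and 1534 in WT tumours. Within the WT tumours replicate 1 was the lowest in both genes.

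The MKO differences were -2.26 ± 0.48 for Hmgcs1 (SE, adjusted p = 0.00611), a fold of 0.208, and -1.37 ± 0.23 for Cyp51 (SE, adjusted p = 0.000913), a fold of 0.386. The Hmgcs1 call ended without WT 8m_T replicate 3 (adjusted p = 0.0526). Srebf2 had 309, 323 and 364 in MKO tumours, against 683, 492 and 761 in WT tumours, and differed by -0.89 ± 0.18 (SE, adjusted p = 0.00547). Acat2 had 638, 657 and 1096 in MKO tumours, against 1117, 1322 and 2109 in WT tumours, and differed by -0.90 ± 0.23 (SE, adjusted p = 0.0202).

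The Acat2 call was lost without MKO 8m_T replicate 1 or 2 or WT 8m_T replicate 3 (adjusted p up to 0.158), and without that WT library the count of members called was 2. Sqle had 133, 79.2 and 90.7 in MKO tumours, against 158, 197 and 249 in WT tumours, and differed by -0.85 ± 0.30 without being called (SE, adjusted p = 0.111). Stard4 differed by -0.50 (adjusted p = 0.196). In a fit of the MKO and WT tumours alone, with 3 libraries each, no member was called.

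Among the 16 other synthesis enzymes 7 were lower and 0 higher in MKO tumours, with a median of -0.813, against 0.003 over all genes. Those with the smallest p were Tm7sf2 by -0.86 (adjusted p = 0.011), Nsdhl by -1.33 (0.0114) and Pmvk by -1.09 (0.0118). That 7 became 0 without MKO 8m_T replicate 2, 2 without MKO 8m_T replicate 1 or WT 8m_T replicate 3, and 4 without WT 8m_T replicate 2. Tmem97 was lower by -0.76 (adjusted p = 0.00611). Macrophage markers summed to 7511 to 14665 (median 9327) in MKO tumours, against 3275 to 3794 (median 3578) in WT tumours, with 10 of 14 called higher, or 2 without MKO 8m_T replicate 1. Of 5 cholangiocyte markers 2 were higher without overlap, Krt7 by 1.39 (adjusted p = 0.00513) and Krt19 by 1.08 (0.0113), and 1 without MKO 8m_T replicate 1 or WT 8m_T replicate 1. These summed to 492 to 2835 (median 830) in MKO tumours, against 529 to 610 (median 545) in WT tumours. Stellate cell and fibroblast markers summed to 4093 to 8641 (median 5911) in MKO tumours, against 2342 to 3175 (median 2605) in WT tumours, with 2 of 9 called higher, or 4 without MKO 8m_T replicate 3. Their part in the members' result was not tested.

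In BKO tumours 0 of 6 members were called, against a background of 0.548%. Hmgcs1 had 778, 839 and 644 in BKO tumours, against 335, 1226 and 1938 in WT tumours, a difference of -0.31 ± 0.48 (SE, adjusted p = 0.883). The 3 BKO tumours lay inside the WT range. The difference of the tumour effect was called for no member in any knockout, against backgrounds of 0.123% in IKO, 0.0308% in SKO, 0.0308% in BKO and 0.131% in MKO. The smallest adjusted p was 0.0632, for Srebf2 in MKO (-1.13 ± 0.26, SE), and it was 0.0136 without WT 8m_T replicate 2. In SKO Srebf2 had -0.79 (adjusted p = 0.204), and 0.0465 without SKO 8m_T replicate 4.

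Age was compared in WT, as 8-month non-tumour against 1-month liver. All these mice received DEN, so age cannot be told apart from the course of DEN exposure or from tumours at 8 months. No member was called in either sequencing group, against backgrounds of 7% and 1.72%. Hmgcs1 had 805, 190, 587 and 894 at 8 months, against 298, 407, 147 and 358 at 1 month in the first sequencing group, a difference of 0.86 (adjusted p = 0.186). The second 8-month library was the low one, and without it the difference was called (adjusted p = 0.039). In the second sequencing group it was 0.24 (adjusted p = 0.861).

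Libraries of the same group differed in these genes more than they did in most genes. The standard deviation within groups of Hmgcs1 was 0.593 on the log2 scale in the first sequencing group and 0.633 in the second, larger than in 98.5% and 98.6% of all genes. The median over all genes was 0.25 and 0.215. Sqle had 0.442 and 0.393, larger than in 95.5% and 93.2% of genes, and Cyp51 had 0.387 and 0.299, larger than in 92% and 83.2%. Acat2 (0.322 and 0.288), Stard4 (0.305 and 0.268) and Srebf2 (0.273 and 0.231) lay closer to the median.

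The same library was often low or high in several members at once. In 21 of the 30 groups a single library was the lowest in at least 4 of the 6 members, and in 10 groups in at least 5. In 4 groups a single library was lowest in all 6: IKO 1m replicate 2, WT 5m replicate 2 and WT 8m_NT replicate 2 of the first sequencing group, and WT 1m replicate 2 of the second. A single library was highest in all 6 in 1 group, SKO tumours. These counts share the depth and size factor of each library and have no test.

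**Figure D5:**
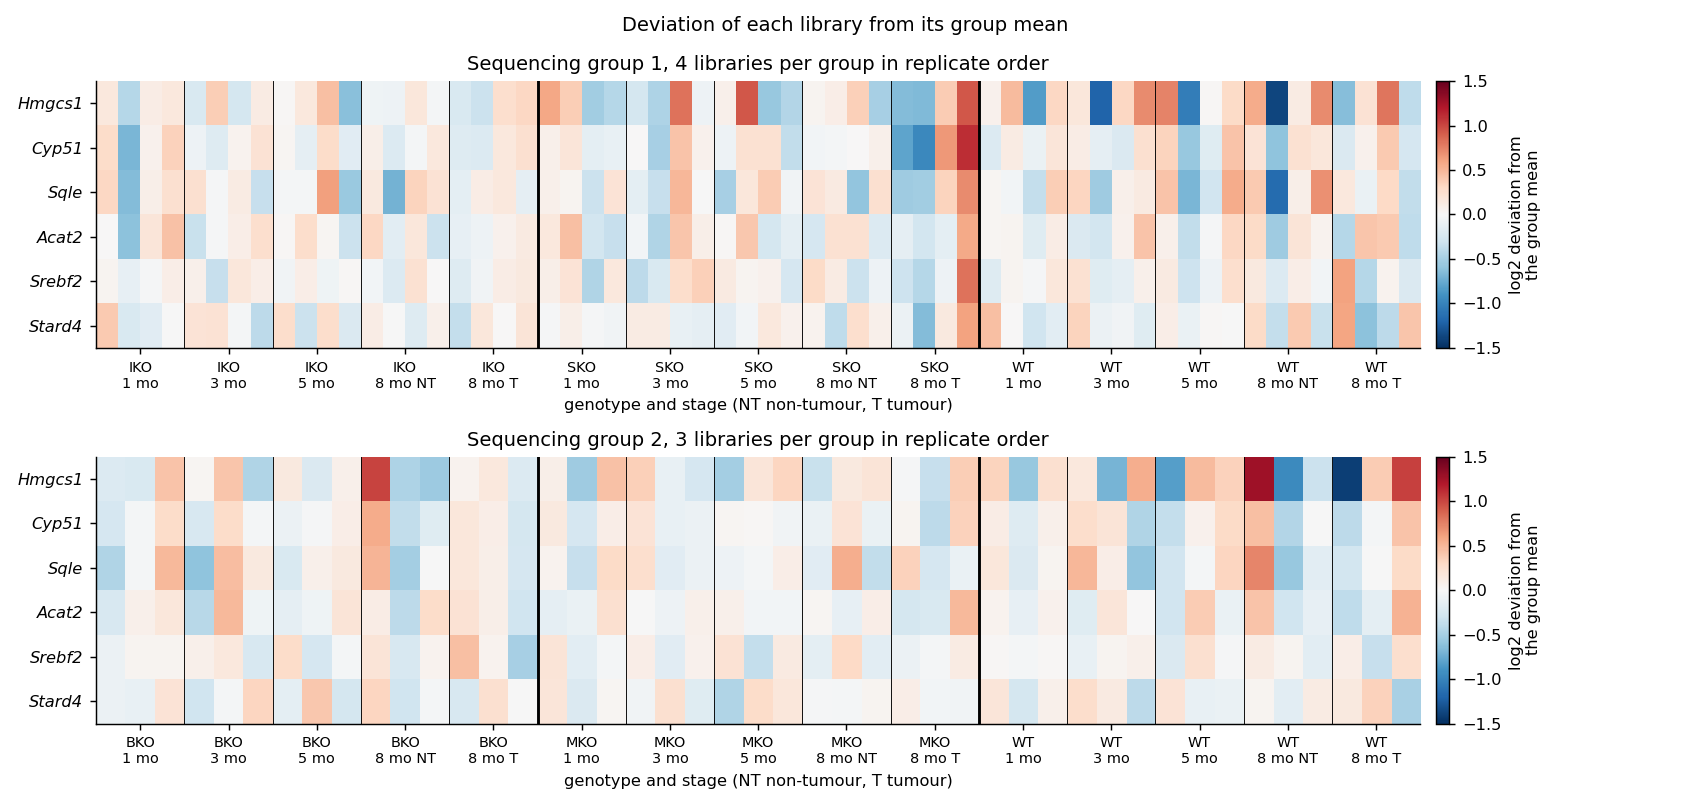
Deviation of each library (columns, grouped by stage and genotype, NT non-tumour and T tumour) from its group mean on the deposited log2 scale (colour, limited to 1.5 either way) for the 6 members (rows). Columns of a single colour are libraries that were low or high in most members together, such as WT 8m_NT replicate 2 of the first sequencing group.

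Across the 30 group means, centred within each sequencing group and scaled, the members were averaged to 1 profile. Cyp51 followed that profile most closely (Pearson r = 0.939), then Hmgcs1 (0.834), Sqle (0.831) and Srebf2 (0.789), and Acat2 (0.492) and Stard4 (0.401) followed it least. Each member is part of the profile, which raises its own correlation above that of a gene outside the list. The order changed by Spearman rank correlation, where Cyp51 was again closest (0.909), but Acat2 (0.560) came before Srebf2 (0.524) and Stard4 (0.490). Between pairs, r was 0.795 for Cyp51 and Sqle, 0.779 for Sqle and Srebf2, and -0.077 for Acat2 and Stard4. Outside the list the most alike genes by Pearson r included Nsdhl (0.898), Mvd (0.866), Mvk (0.857) and Rdh11 (0.848). Mvd encodes the mevalonate diphosphate decarboxylase and Rdh11 a retinol dehydrogenase. By Spearman rank correlation Tmem97 (0.839) and Msmo1 (0.817) took the places of Mvk and Rdh11. These are descriptions over group means that share libraries and scaling.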

How the data were processed

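Poly(A)-linked RNA of 105 mouse liver and tumour libraries was sequenced, and the sample titles divide the libraries into 2 sets. The submitters' processing notes name STAR 2.7.10a, HTSeq 2.0.2, DESeq2 1.32.0 and the builds GRCm38 and mm10. The matrix was deposited as log2-scale values with a floor of 3.8289, which stands for 0 reads. They were undone to normalised reads, and 100.00% came out as whole reads within 0.05. No sample column was left out.

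Each sequencing group was fitted apart with limma 3.58.1 (R 4.3.3) on the deposited log2 values, with a mean for each group, a trend in the moderation and Benjamini-Hochberg adjustment over 12966 genes. The stages weighed equally in the average. The code was checked on simulated data. Alternatives were quantile normalization, leaving out the genes of lowest level, no trend, limma-voom on whole reads, fitting only the groups compared, a replicate block and leaving out each library. Same-numbered samples deviated together, with correlations over 0.1 in every pair, for BKO tumours with BKO liver (0.226 to 0.329). The same held for MKO with WT 8-month non-tumour liver (0.124 to 0.303), which differ in genotype. Such a correlation does not show that samples came from the same animal.

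The rule for naming genes took all members in every comparison, and from each other list up to 3 called genes with the smallest p. In several comparisons members that were not called are given by the count alone. Some genes are not reported here. The members and lists were chosen with earlier results of these data known.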

Additional observations from a re-analysis of the deposited data

Results flagged for a closer look

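In 5 of the 90 sets of 4 libraries examined for the members, a single library stood apart from the other 3 by more than Dixon's 95% critical value, and chance flags about 1 in 20 such sets. Hmgcs1 had 128.5 normalised reads in IKO 1m replicate 2, below 199 to 208 in the other 3 libraries. Hmgcs1 had 349.3 in IKO 8m_NT replicate 3, above 292 to 300 in the others. Cyp51 had 299.6 in WT 8m_NT replicate 2 of the first sequencing group, below 530 to 552. Sqle had 16.51 in SKO 8m_NT replicate 3, below 40.5 to 45.3. Acat2 had 1336 in SKO 8m_T replicate 4, above 734 to 809.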

How the results depend on the processing

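Among 4692 values under the alternatives that kept every library, 4298 were unchanged, 384 were no longer called, 7 became called and 0 reversed. The other 3, among the ratios of highest to lowest group mean, moved. For genes, unchanged means that a called gene kept its call and direction, or that an uncalled gene stayed uncalled in either direction. When 1 library was left out, 8747 of 9524 were unchanged, 747 were no longer called, 30 became called and 0 reversed. Counts of members called changed as follows, and the cause was not tested unless fewer samples were fitted. In SKO against WT tumours the count was 1, and 2 with quantile normalization, 0 with only those groups fitted, 0 with the replicate block and 1 to 4 when 1 library was left out. In SKO against WT the interaction between stages gave 0, 1 with only those groups fitted and 0 to 3 when 1 library was left out. SKO tumours against liver gave 2, then 1 with only those groups fitted and 1 to 3 when 1 library was left out. MKO against WT tumours gave 4, then 0 with only those groups fitted, 0 with the replicate block and 2 to 4 when 1 library was left out. BKO tumours against liver gave 3, then 0 with only those groups fitted and 1 to 4 when 1 library was left out. MKO tumours against liver gave 1, then 0 with only those groups fitted or with the block. WT tumours against liver in the second sequencing group gave 5, then 3 with only those groups fitted or with the block. BKO against MKO gave 1, then 0 with quantile normalization and 0 to 1 when 1 library was left out. MKO against WT non-tumour liver gave 1, and 0 to 1 when 1 library was left out. The tumour effect in SKO and in MKO against WT and age in WT of the first sequencing group gave 0, and 0 to 1 when 1 library was left out. Calls summed over single stages were 0 in IKO (0 to 1 when 1 library was left out), 5 in SKO (4 to 6, and 4 with quantile normalization, no trend, only those groups fitted or the block), 1 in BKO (0 to 2, 0 with limma-voom and 0 with the block) and 1 in MKO (0 to 2, and 0 with only those groups fitted). Those SKO calls were not the same genes. At 3 months the Cyp51 and Acat2 calls ended with only those groups fitted and with the block (adjusted p = 0.158 and 0.147). At 1 month Srebf2 ended with quantile normalization, with no trend and with the block (adjusted p = 0.077), Sqle was called with only those groups fitted and with the block (0.0175), and Hmgcs1 was called with the block (0.0497). WT tumours against liver in the first sequencing group gave 4, and 5 with quantile normalization, Acat2 added. Whether a shared number means a shared animal is not known, in or outside the 2 comparisons where same-numbered samples deviated together. With 3 or 4 libraries a group, fits of single pairs of groups have few degrees of freedom, and Sqle has the fewest reads of the members.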
